A study of Rattus norvegicus with 20 samples.

Results

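Liver mRNA of 4 Line-A rats was compared with that of 4 Long-Evans (*Turku/AB*) (L-E) rats. The arrays were chosen by their titles alone, and they make up 8 of the 20 arrays of the series. Line-A descends from crosses of L-E with Han/Wistar (*Kuopio*) (H/W) and carries the variant *Ahr* of H/W, whereas L-E is the in-bred parent and carries wild-type *Ahr*. All of these animals were males of 10 to 12 weeks that had received corn oil, the vehicle, by gavage 19 h before the liver was taken, so no rat had been given dioxin. Each rat had its own array of total liver RNA. The other arrays held 4 rats each of Line-C (the same crosses, wild-type *Ahr*), of H/W (random-bred closed colony, variant *Ahr*) and of Sprague-Dawley (S-D, out-bred, wild-type *Ahr*), and values of Line-C and H/W are given beside those of Line-A and L-E where a gene turns on them. Line-A holds H/W DNA at *Ahr* and at other loci that the sources used here do not list, so an effect of the receptor and one of other inherited loci cannot be told apart between these groups.

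The aryl hydrocarbon receptor (AHR) is a ligand-activated transcription factor that enters the nucleus, pairs with ARNT and binds dioxin-response elements near genes such as *Cyp1a1*. The H/W form of the receptor lacks part of its transactivation domain, and rats that carry it survive doses of dioxin that kill L-E rats. The liver of a fed or fasted rat also shifts between fatty acid synthesis and fatty acid oxidation under insulin, glucagon and the receptor PPARα.

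The array held 15923 ProbeSets, of which 7168 had a mean signal of at least 4 over the 20 arrays, the study's limit of expression. Signals are on the log2 scale, and a difference is Line-A minus L-E throughout. The median signal per array lay at 3.56 to 3.69 in Line-A and at 3.49 to 3.52 in L-E, and any 2 arrays of a group correlated at 0.995 to 0.997 in Line-A and at 0.994 to 0.996 in L-E, against 0.985 to 0.991 for arrays of different groups. All 4 Line-A arrays were scanned on 1 day, which they shared with Line-C, and the L-E arrays on 2 other days, which they shared with H/W. Chip lot was divided likewise, with Line-A and Line-C on the same lot and L-E and H/W on others. Line-A and L-E therefore cannot be told apart from scan day or chip lot. The array of Line-A rat 4 stood apart within its group, with a 3′ minus 5′ signal of the GAPDH control ProbeSets of 0.17 against 0.39 to 0.42 in the other Line-A rats and the highest median signal. Of 13 hepatocyte markers on the array all 13 were expressed, and the log2 of their summed signal was 18.55 to 18.61 in Line-A and 18.46 to 18.55 in L-E.

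Line-A and L-E livers differed at many ProbeSets, mostly by little. At 5% FDR (limma, with Benjamini-Hochberg adjustment over all ProbeSets) 2132 of the 7168 expressed ProbeSets were called (29.7%), 1161 higher in Line-A (16.2%) and 971 lower (13.5%). Of those called, 49.0% differed by less than 0.5 on the log2 scale. With the arrays set to equal medians the median difference of all expressed ProbeSets moved from 0.04 to −0.06 and the calls split into 583 higher and 1301 lower, so the balance between the directions rests on the scaling. Without the array of Line-A rat 4 the calls numbered 1225, without that of L-E rat 2 they numbered 1251, and with scan day as a random block 1022. Differences of at least 2-fold were called at 328 ProbeSets (4.58%), 105 higher in Line-A (1.46%) and 223 lower (3.11%), and at 282 of these the 4 rats of one group lay wholly above the 4 of the other. By themselves, ranges that did not overlap were found at 34.5% of expressed ProbeSets. Of the 328, 318 were still called in the same direction with equal medians, 260 with scan day as a random block and between 266 and 328 with any 1 array left out. In the plot of difference against signal the large differences stand clear of the cloud on both sides, 23 ProbeSets at 4-fold or more above it and 26 below. By gene, each read by its brightest ProbeSet, 1534 of 5388 expressed genes were called (28.5%), 16% higher in Line-A and 12.5% lower. The counts of each gene list below are to be set beside these shares.

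**Figure D1:**
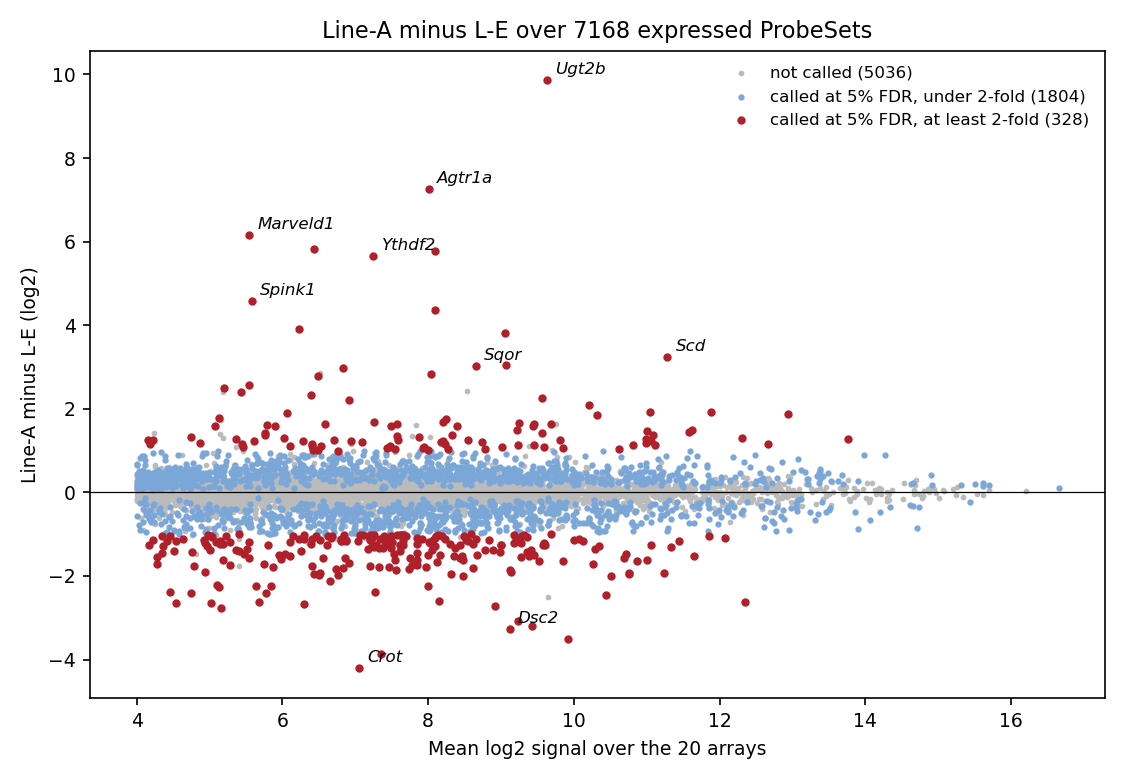
Difference of Line-A minus L-E (log2) against the mean signal over 20 arrays (log2) for the 7168 expressed ProbeSets, with ProbeSets called at 5% FDR in blue and, where the difference was at least 2-fold, in red. The 328 red ProbeSets are 105 above 0 and 223 below it, and the 8-fold differences are 13 above and 6 below.

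The largest difference was that of *Ugt2b*, a UDP-glucuronosyltransferase that couples glucuronic acid to steroids and xenobiotics. Its signal was 13.63, 13.68, 13.55 and 13.23 in the Line-A rats and 3.70, 3.62, 3.68 and 3.64 in the L-E rats. Every L-E liver lay under the limit of expression and every Line-A liver among the most abundant transcripts, so the means of 13.52 ± 0.20 and 3.66 ± 0.04 (SD, n = 4 each) give at least 736-fold (adjusted p = 1.4e-17 in limma). A second ProbeSet gave 10.44 ± 0.09 in Line-A and 4.65 ± 0.05 in L-E. Line-C, with wild-type *Ahr*, stood with Line-A at a mean of 13.55, and H/W, with variant *Ahr*, stood with L-E at 3.64. Line-A also shared scan day and chip lot with Line-C, and L-E shared its own with H/W. The cause of this split was not tested. Other UGT2B genes share much of their sequence, and which copy the probes read was not tested. In the list of UDP-glucuronosyltransferases and their supply of UDP-glucuronic acid, 4 of 6 expressed genes were higher and 0 lower (3 and 0 with equal medians), with a median of 0.59. Beside *Ugt2b* these were *Ugp2*, *Ugdh*, which makes UDP-glucuronic acid, and *Ugt2b35*, higher by 0.88, 0.59 and 0.23, of which *Ugt2b35* was not called with equal medians or without Line-A rat 4 or L-E rat 2 or 3. The list's *Ugt2b1* and *Ugt2b15*, at 0.58 and 0.34, were not called.

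*Agtr1a*, the type 1a receptor of angiotensin II, had signals of 11.02, 10.58, 10.79 and 10.76 in Line-A and of 4.07, 3.47, 3.5 and 3.12 in L-E. Only L-E rat 1 reached the limit, and with the L-E signals under it raised to 4 the means differed at least 109-fold (adjusted p = 4.3e-15). Its second ProbeSet read 8.51 ± 0.27 in Line-A and 2.69 ± 0.01 in L-E, at least 22.8-fold. Here H/W, with a mean of 11.12, stood with Line-A, and Line-C, at 3.91, with L-E. The other 4 expressed genes of the renin-angiotensin system were not called.

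The windows from 250 bases before to 50 bases after the start of *Ugt2b* and *Agtr1a*, the genes nearest to all-or-none expression, are printed from RefSeq on assembly GRCr8, 5′ to 3′ on the gene's strand. Capitals mark the motif TATAAA, which lies 43 bases before the start in *Ugt2b* and 45 before it in *Agtr1a*.
*Ugt2b*, chr14:20985199-20985498, plus strand: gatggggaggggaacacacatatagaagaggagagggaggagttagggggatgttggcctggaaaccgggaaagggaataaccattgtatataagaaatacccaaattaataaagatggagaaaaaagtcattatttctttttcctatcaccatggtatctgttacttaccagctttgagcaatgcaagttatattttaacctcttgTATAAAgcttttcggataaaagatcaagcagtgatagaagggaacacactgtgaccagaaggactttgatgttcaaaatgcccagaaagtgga
*Agtr1a*, chr17:34435383-34435682, minus strand: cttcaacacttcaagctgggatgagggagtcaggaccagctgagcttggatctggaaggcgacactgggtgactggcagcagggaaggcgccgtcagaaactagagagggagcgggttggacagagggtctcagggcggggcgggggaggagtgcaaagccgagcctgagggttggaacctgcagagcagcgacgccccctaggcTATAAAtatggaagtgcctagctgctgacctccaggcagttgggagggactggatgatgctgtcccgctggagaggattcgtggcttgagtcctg
Searched on both strands (TATAAA or TTTATA), this motif stood in 14.2% of 33469 rat windows and in 4 of the 23 genes with a window among the 24 genes of largest difference, the others being *Afp* and *Cyp2c12*. The core of the dioxin-response element (GCGTG or CACGC) stood in 29.7% of all windows and in 6 of the 23, and in neither window above. The windows are those of the reference rat, not of L-E or Line-A.

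*Marveld1*, a membrane protein with a MARVEL domain, read 6.91, 8.67, 9.0 and 9.27 in Line-A and 2.30, 2.30, 2.30 and 2.29 in L-E. All L-E livers lay at the floor of the signals, and the means of 8.46 and 2.30 give at least 22-fold (adjusted p = 1.9e-07). The mean was 6.89 in H/W and 2.53 in Line-C. *Spink1*, a trypsin inhibitor best known from pancreatic acinar cells, read 8.49, 7.81, 7.93 and 8.83 in Line-A and 3.94, 3.93, 3.15 and 3.73 in L-E. That is at least 19.2-fold from means of 8.26 and 3.69 (adjusted p = 6.0e-07), and neither Line-C at 5.70 nor H/W at 5.51 reached Line-A. A second ProbeSet gave 8.40 ± 0.27 in Line-A and 4.50 ± 0.77 in L-E, and the remaining one differed by 0.20 only (adjusted p = 0.51). Of 18 acinar markers on the array 14 lay under the limit, trypsinogen *Prss1* among them with a mean of 3.97 in Line-A and 3.84 in L-E. Of the 4 expressed, 3 were higher and 0 lower, namely *Spink1* itself and the amylases *Amy1*, at 13.21 ± 0.13 in Line-A and 12.72 ± 0.31 in L-E, and *Amy2a3*, at 4.69 ± 0.30 and 4.29 ± 0.12, the last not called without Line-A rat 4 or L-E rat 1, 2 or 3. Elastase *Cela1*, at 7.43 and 6.84, was not called. The part of acinar RNA in these differences was not tested.

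*Sqor* encodes the sulfide:quinone oxidoreductase of mitochondria. Line-A rats read 10.25, 9.96, 10.01 and 9.89 and L-E rats 7.02, 7.06, 6.77 and 7.19, an 8.11-fold difference (log2 3.02 ± 0.12 SE, adjusted p = 8.5e-11). No rat of either group came within 2 log2 units of the other group. H/W averaged 10.48 and Line-C 7.34. *Ethe1*, the next enzyme of sulfide oxidation, was higher too, at 10.69 ± 0.31 in Line-A and 9.05 ± 0.80 in L-E.

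*Afp*, the fetal albumin-like protein, read 7.94, 8.22, 8.55 and 8.19 in Line-A and 5.55, 4.34, 5.05 and 6.03 in L-E, 7.91-fold (adjusted p = 1.9e-05). *Bckdhb*, a subunit of the branched-chain ketoacid dehydrogenase, read 11.15 ± 0.09 in Line-A and 9.29 ± 0.18 in L-E (adjusted p = 6.1e-07). *Ythdf2*, a reader of N6-methyladenosine, read 9.51, 9.16, 9.70 and 9.41 against 2.98, 4.19, 4.15 and 3.83 on 1 ProbeSet. On its other ProbeSet the means were 3.89 in Line-A and 3.75 in L-E and did not differ beyond the spread (adjusted p = 0.54). *Rtn4ip1*, a mitochondrial oxidoreductase, was higher by 2.50, and *Dusp6*, a phosphatase of ERK, by 2.58 on 1 ProbeSet, though its Line-A rats fell into a pair at 8.57 and 8.17 and a pair at 5.14 and 5.57 and its call was lost without Line-A rat 4. The other 2 ProbeSets of *Dusp6*, both brighter, differed by 0.68 and −0.54 and were not called (adjusted p = 0.17 and 0.45). *Lox*, the lysyl oxidase that cross-links collagen, averaged 9.28 ± 0.57 in Line-A and 6.50 ± 1.05 in L-E (adjusted p = 0.042), a call lost when any 1 Line-A or L-E array was left out. *Col14a1*, a fibril-associated collagen, averaged 6.86 ± 0.45 and 4.52 ± 0.21 (adjusted p = 0.0014).

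**Figure D2:**
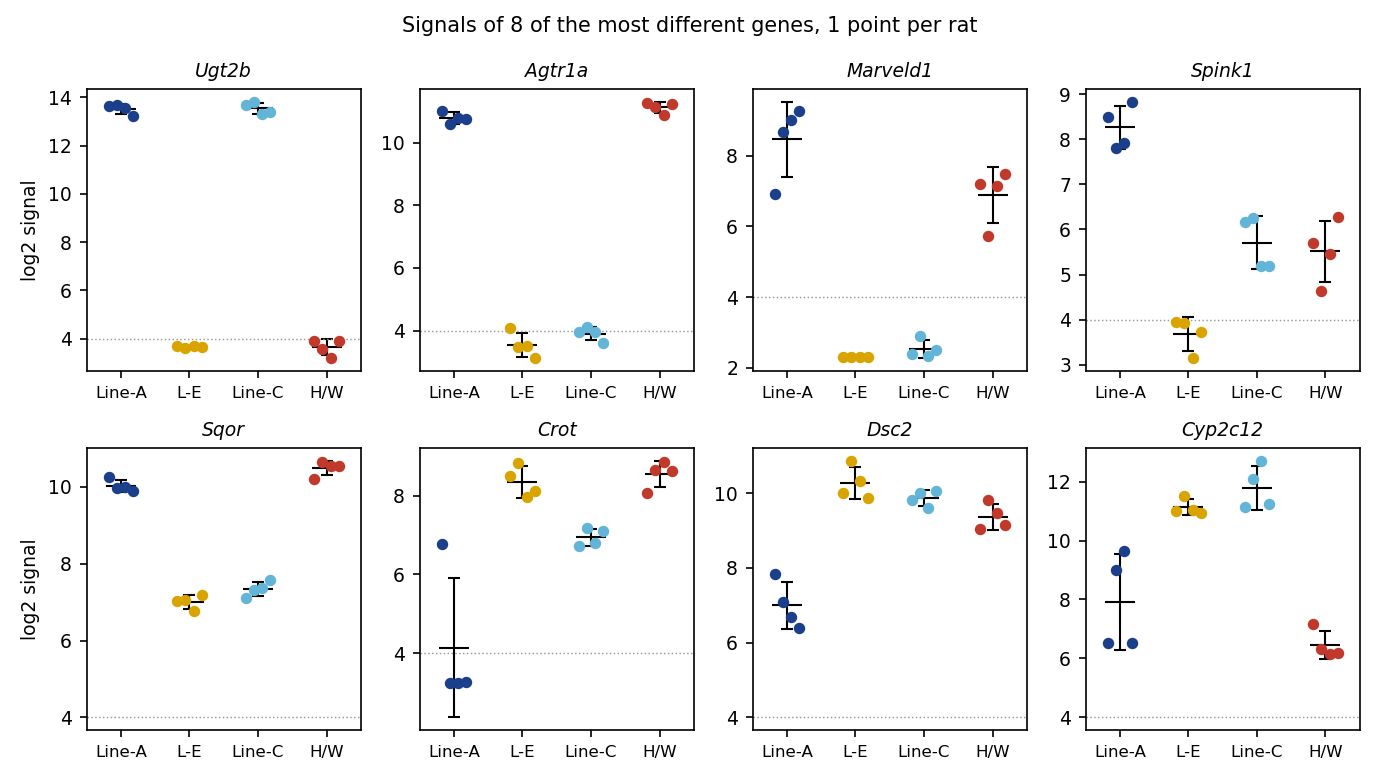
Signal (log2) of 8 genes in each rat of Line-A, L-E, Line-C and H/W, with the mean ± SD of 4 rats and a dotted line at the limit of expression of 4. *Ugt2b* is high in Line-A and Line-C and low in L-E and H/W, whereas *Agtr1a*, *Marveld1* and *Sqor* are high in Line-A and H/W, and *Crot*, on the ProbeSet of larger difference, is lower in Line-A than in any other group.

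Among genes lower in Line-A, the largest difference was that of *Crot*, the peroxisomal carnitine octanoyltransferase that hands shortened fatty acids to mitochondria. One ProbeSet read 6.79, 3.24, 3.26 and 3.26 in Line-A and 8.49, 8.84, 7.96 and 8.11 in L-E (at least 12.6-fold lower with the Line-A signals under 4 raised to it, adjusted p = 0.00017), and the other read 9.94, 6.03, 7.11 and 6.07 against 10.71, 11.40, 10.63 and 10.40. Line-A rat 1 lay near L-E on both, and the other 3 Line-A rats were under the limit on the first. Line-C averaged 6.95 and H/W 8.55 on that ProbeSet, and Line-A was called lower than each (adjusted p = 0.018 and 0.00017). These contrasts share the Line-A arrays with that against L-E, and over expressed ProbeSets they called 207 against Line-C (2.89%) and 964 against H/W (13.4%).

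*Dsc2*, the desmosomal cadherin desmocollin 2, read 7.83, 7.09, 6.68 and 6.39 in Line-A and 10.02, 10.86, 10.33 and 9.87 in L-E, 9.68-fold lower (adjusted p = 3.4e-06). Line-A was also called lower than Line-C, at 9.87, and H/W, at 9.38. Desmocollin belongs to a list of 21 cadherin and junction genes in which 8 were lower in Line-A and 3 higher (28.5% of all 5388 expressed genes were called, 16% higher and 12.5% lower). Tight-junction *Cldn1*, with a difference of −1.31, and gap-junction *Gjb1*, with −0.73, were lower, whereas *Ctnnb1*, which encodes β-catenin, was higher by 0.62. The 11 calls of this list numbered 7 without Line-A rat 4 or without L-E rat 3.

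*Cyp2c12*, the P450 that marks female rat liver, read 6.53, 9.02, 9.63 and 6.53 in Line-A and 11.02, 11.53, 11.02 and 10.94 in L-E (9.19-fold lower, adjusted p = 0.0020). The L-E rats were alike and the Line-A rats fell into a lower and a higher pair. Line-C averaged 11.79 and H/W 6.46. *Aldh1a1*, which makes retinoic acid from retinal, read 9.97, 7.81, 8.48 and 7.22 in Line-A and 11.54, 11.96, 11.43 and 10.86 in L-E (8.45-fold lower, adjusted p = 0.00084). *Vat1*, a membrane protein of vesicles, averaged 6.52 ± 0.14 in Line-A and 9.12 ± 0.15 in L-E, and *Tmem150c*, a membrane protein, 5.62 ± 0.05 and 8.29 ± 0.25. The spread within both groups was small against these differences of −2.60 and −2.67. Beside *Cpt1a* and *Cyp4a3*, given with fatty acid oxidation below, the rest of the 12 largest in this direction were *Tle1*, *Hnrnpul1*, *Eif4g1* and *Stk24*. Their differences were −2.76, −2.61, −2.42 and −2.40. The Line-A means of *Tle1* and *Eif4g1* lay under the limit, as did the L-E mean of *Rtn4ip1* above, so their differences are sizes of signal and not folds of a measured level. Of the 4, *Eif4g1* was not called without Line-A rat 4 or L-E rat 2.

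In the AHR pathway itself, no called gene of the receptor and its partners differed by 2-fold, whereas 2 of its target battery did. The 2 *Ahr* ProbeSets lay under the limit in the means of both groups, as did *Arnt*, and no fold is given. Of 6 expressed genes in the list of AHR and its partners 2 were called higher and 1 lower, 0 of them by 2-fold. The share called was 50%, against 28.5% of all expressed genes. With equal medians 1 was higher and 2 lower. Differences in this list ran from −0.46 to 0.95, with a median of −0.08. *Cyp1a1*, the best known AHR target, read 2.68, 3.61, 5.76 and 6.17 in Line-A and 1.70, 2.32, 4.85 and 3.72 in L-E, with ranges that overlapped (adjusted p = 0.30). *Cyp1a2* was highly expressed and alike, at 14.31 ± 0.08 in Line-A and 14.25 ± 0.05 in L-E (adjusted p = 0.64), and *Nqo1* averaged 8.76 ± 0.76 and 9.47 ± 0.51 (adjusted p = 0.41). Of 8 expressed genes of the AHR target battery 1 was higher, *Tiparp*, the ADP-ribosylase that feeds back on AHR, at 6.23 ± 0.36 in Line-A and 5.52 ± 0.22 in L-E (adjusted p = 0.012), and 2 were lower, *Aldh1a1* and the fatty acid carrier *Cd36*. That of *Cd36* (difference −1.17, adjusted p = 0.047) was lost without any 1 Line-A array or without L-E rat 1, 2 or 3. The median difference of the 8 genes was −0.01, against 0.05 over all expressed genes. The share of the 8 called was 37.5%, against 28.5% of all expressed genes. Both lower genes differed by at least 2-fold, as did 3.8% of all expressed genes in either direction.

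The study had picked genes on these arrays as dependent on *Ahr* across all groups, so their values here are not independent of that choice. Besides *Agtr1a*, *Marveld1*, *Lox*, *Cyp2c12*, *Dsc2* and *Lyz2*, treated here in their own places, *Rab14*, a small GTPase of endosomes, was called on 2 ProbeSets, at 6.38 in Line-A and 3.98 in L-E (3.63 in Line-C and 6.44 in H/W) and at 8.50 ± 0.13 and 7.47 ± 0.17, but not on the other 2, at 11.26 ± 0.51 and 10.96 ± 0.12 and at 8.38 and 8.12 (adjusted p = 0.17 each). *Creg1* averaged 9.94 in Line-A and 9.79 in L-E, below 12.21 in Line-C and 12.35 in H/W, and was not called (adjusted p = 0.48). *Olr59*, an olfactory receptor, was at 8.44 and 7.60, *Itga1*, an integrin, at 3.67 and 4.62, *Selenow* at 4.47 and 5.14 and *Sirt3* at 7.27 and 7.29, none of them called (adjusted p = 0.086, 0.072, 0.081 and 0.97).

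Several enzymes of fatty acid synthesis were higher in Line-A, while the whole list of lipogenesis and triglyceride synthesis split into 6 higher and 6 lower. *Scd*, the stearoyl-CoA desaturase, read 12.28, 13.77, 13.04 and 13.24 in Line-A and 10.06, 9.45, 8.75 and 11.11 in L-E (9.43-fold, adjusted p = 0.0026). *Fasn*, the fatty acid synthase, read 11.52, 12.30, 11.91 and 11.54 in Line-A and 9.74, 8.86, 9.61 and 10.66 in L-E (4.29-fold, adjusted p = 0.0022), and was called higher than in Line-C and H/W too (adjusted p = 0.029 and 0.034). The L-E rats were the more spread, with rat 4 nearest to Line-A in both genes. *Acaca*, which makes malonyl-CoA, *Thrsp*, *Acly* and the regulator *Srebf1* were higher by 1.42, 1.31, 1.14 and 1.03. The call of *Srebf1* was lost without L-E rat 2, and those of *Thrsp* and *Acly* without L-E rat 1, 2 or 3 or without Line-A rat 2 or 4 (*Acly* also without Line-A rat 3). Of 24 expressed genes of lipogenesis and triglyceride synthesis these 6 rose and 6 fell, 6 and 2 of them by at least 2-fold (3.8% of all genes, 1.26% higher and 2.54% lower). Those lower included *Mlxipl*, the carbohydrate-responsive factor ChREBP, by 1.38 and the desaturase *Fads2* by 1.10, so the median of the list was −0.14. The 12 calls numbered 7 without L-E rat 2.

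Of 43 expressed genes of fatty acid oxidation and ketone bodies 19 were lower in Line-A, 8 of them by at least 2-fold, and 2 were higher, with a median difference of −0.36 against 0.05 over all genes. The 21 calls of this list numbered 13 with scan day as a random block and 14 to 22 with any 1 array left out. *Cpt1a*, the carnitine palmitoyltransferase that admits fatty acids to mitochondria, read 9.25, 6.80, 7.66 and 7.65 in Line-A and 11.08, 11.14, 10.47 and 9.56 in L-E on its ProbeSet of larger difference (6.59-fold lower, adjusted p = 0.0013), and 9.59 ± 0.95 and 11.31 ± 0.80 on the other. *Cyp4a3*, a fatty acid omega-hydroxylase, read 10.57, 8.43, 8.87 and 8.81 in Line-A and 11.89, 12.26, 11.56 and 10.79 in L-E (5.49-fold lower, adjusted p = 0.0015). *Cyp4a1*, of the same family, read 13.36, 10.07, 10.11 and 11.18 against 13.29, 13.73, 13.18 and 12.24, where Line-A rat 1 lay among the L-E rats (adjusted p = 0.026, not called without Line-A rat 2, 3 or 4 or without L-E rat 2). *Ehhadh*, *Eci1*, *Decr1*, *Acadl* and the trifunctional protein genes *Hadha* and *Hadhb* were lower by 1.10, 1.27, 0.93, 0.74, 0.73 and 0.70. The higher genes were *Acat1*, by 0.61, and *Echs1*, by 0.26, of which *Echs1* was not called with equal medians or without Line-A rat 2 or 4 or any 1 L-E array. *Fabp1* and *Acadm*, with differences of −0.10 and −0.09, were not called.

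The rats of a group did not stand at one level in these genes. The median signal over the 43 oxidation genes was 10.93, 10.26, 10.33 and 10.39 in Line-A rats 1 to 4 and 10.93, 11.40, 10.99 and 10.79 in L-E rats 1 to 4. Line-A rat 1, the highest of its group, was level with L-E rat 1, and L-E rat 4 was the lowest of its group. In *Scd* these same animals were the lowest of Line-A, at 12.28, and the highest of L-E, at 11.11. Hours since feeding were not given in the sources used here, and their part in these differences was not tested.

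**Figure D3:**
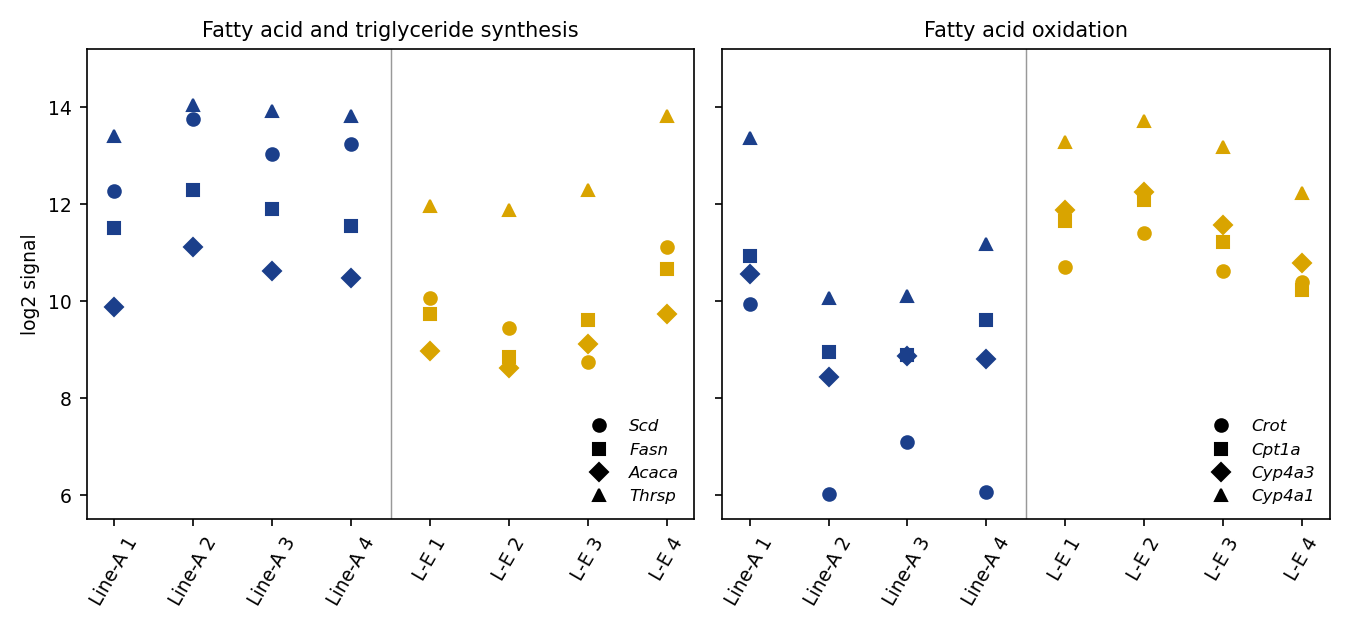
Signal (log2) of 4 genes of fatty acid synthesis (*Scd*, *Fasn*, *Acaca*, *Thrsp*) and 4 of oxidation (*Crot*, *Cpt1a*, *Cyp4a3*, *Cyp4a1*) in each of the 4 Line-A and 4 L-E rats, numbered 1 to 4. Line-A rat 1 is the lowest Line-A rat in *Scd* and the highest in *Crot*, *Cpt1a*, *Cyp4a3* and *Cyp4a1*, and L-E rat 4 is the highest L-E rat in *Scd*, *Fasn* and *Acaca*.

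The windows around the starts of *Scd*, with the largest difference among the synthesis genes, and *Cpt1a*, which controls the entry of fatty acids into mitochondria, are shown as examples of either pathway, and both hold the core of the dioxin-response element, in capitals. It is read as CACGC 210 bases before the start of *Scd* and as GCGTG 153 bases before that of *Cpt1a* (RefSeq, GRCr8, 5′ to 3′).
*Scd*, chr1:253231682-253231981, minus strand: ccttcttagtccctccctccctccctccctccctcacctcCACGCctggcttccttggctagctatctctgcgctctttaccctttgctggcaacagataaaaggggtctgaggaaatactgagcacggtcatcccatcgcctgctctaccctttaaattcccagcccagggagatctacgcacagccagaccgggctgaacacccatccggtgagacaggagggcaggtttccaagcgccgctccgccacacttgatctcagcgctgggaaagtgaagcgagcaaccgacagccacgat
*Cpt1a*, chr1:209995910-209996209, plus strand: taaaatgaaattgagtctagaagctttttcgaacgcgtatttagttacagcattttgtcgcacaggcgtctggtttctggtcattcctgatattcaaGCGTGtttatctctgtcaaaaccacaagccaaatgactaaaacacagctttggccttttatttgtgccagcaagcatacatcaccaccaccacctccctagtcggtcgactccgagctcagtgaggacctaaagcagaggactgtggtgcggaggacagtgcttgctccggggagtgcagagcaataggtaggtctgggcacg
As 29.7% of all windows hold these letters, the match is a description of the sequence.

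Of 21 expressed genes of cholesterol synthesis, each read by its brightest ProbeSet, 9 were lower in Line-A and 0 higher, 4 of them by at least 2-fold, with a median difference of −0.59. *Sqle*, the squalene epoxidase, read 7.43, 6.69, 7.53 and 7.04 in Line-A and 9.49, 8.85, 9.38 and 8.77 in L-E (3.86-fold lower, adjusted p = 0.0027). *Idi1*, the isopentenyl diphosphate isomerase, averaged 8.80 ± 0.33 in Line-A and 10.43 ± 0.53 in L-E (adjusted p = 0.0054), and its second ProbeSet gave the same size, −1.62. *Srebf2*, the transcription factor that drives these genes, averaged 6.93 ± 0.69 and 8.34 ± 0.24 (adjusted p = 0.0037). *Lss*, the lanosterol synthase, with a difference of −0.20, was not called. *Sc5d*, the sterol C5-desaturase counted among the 9, was lower by 0.59 on its brightest ProbeSet and higher by 0.59 on the other, so it has no single direction. Set beside *Srebf1*, which was higher by 1.03, the 2 SREBP genes moved in opposite directions.

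Of 25 genes of bile acid synthesis and transport 11 were lower in Line-A and 4 higher, with a median of −0.26. *Cyp8b1*, which sets the share of cholic acid, read 11.14, 10.33, 9.91 and 9.82 in Line-A and 12.40, 12.69, 11.99 and 10.65 in L-E (3.10-fold lower, adjusted p = 0.014), with L-E rat 4 below Line-A rat 1. The conjugating ligase *Slc27a5* was lower, at 12.52 ± 0.19 in Line-A and 13.43 ± 0.07 in L-E, as were the uptake carrier *Slco2b1*, at 8.03 ± 0.14 and 9.36 ± 0.10, and the phospholipid exporter *Abcb4*, at 8.92 ± 0.21 and 9.70 ± 0.33. Among 37 solute carriers of hepatocytes 17 were lower and 2 higher, 6 and 1 by at least 2-fold. The anion exchanger *Slc4a2* averaged 6.82 ± 0.25 in Line-A and 8.62 ± 0.24 in L-E (adjusted p = 8.3e-05), and the monocarboxylate carrier *Slc16a7* 8.13 ± 0.51 and 9.56 ± 0.12. The 19 calls of this list numbered 12 without Line-A rat 4 and 12 without L-E rat 2.

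Of 39 expressed P450 genes and their partners 7 were higher in Line-A and 11 lower, and the 18 calls numbered 11 without Line-A rat 4 and 9 without L-E rat 2. Besides those named above, *Cyp2a1*, a testosterone hydroxylase, was lower by 1.20, and *Cyp4f6*, of a family that hydroxylates eicosanoids, was higher by 1.09. In other detoxification genes, *Akr7a3*, the aflatoxin aldehyde reductase, read 8.94, 10.50, 10.05 and 10.32 in Line-A and 8.04, 8.14, 8.55 and 8.74 in L-E (3.0-fold, adjusted p = 0.0015), and *Nqo2* averaged 9.36 ± 0.24 and 8.11 ± 0.27. *Ephx2*, the soluble epoxide hydrolase, was lower, at 9.23 ± 0.13 in Line-A and 10.38 ± 0.56 in L-E (adjusted p = 0.0040). Sulfotransferase *Sult1e1*, which inactivates estrogens, averaged 13.36 ± 0.13 and 14.24 ± 0.05 (adjusted p = 1.3e-06).

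Genes that follow the pattern of growth hormone or sex split both ways. Of 30 expressed, 8 were higher in Line-A and 9 lower, with a median of −0.02, and the 17 calls numbered 10 without Line-A rat 4 and 9 without L-E rat 2. The male-type urinary protein *Obp3* averaged 13.85 ± 0.24 in Line-A and 12.58 ± 0.32 in L-E, 2.42-fold (adjusted p = 0.00087), though it shares sequence with other α2u-globulin copies. Among binding proteins of IGF, *Igfbp4* read 9.56, 9.11, 9.48 and 9.35 in Line-A and 11.49, 11.31, 11.21 and 11.25 in L-E (3.83-fold lower, adjusted p = 0.00021), and *Igfbp2* 3.57, 4.02, 3.80 and 3.97 against 5.94, 5.29, 5.16 and 5.86 (at least 2.94-fold lower, adjusted p = 1.8e-05). Neither overlapped between the groups. *Igfbp1*, which insulin suppresses, read 3.05, 5.35, 2.59 and 3.28 in Line-A and 4.72, 6.87, 7.10 and 6.19 in L-E, with 1 Line-A rat above the lowest L-E rat (adjusted p = 0.020, not called without Line-A rat 4 or L-E rat 2).

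Of 30 expressed nuclear receptors and liver transcription factors 7 were lower in Line-A, 3 higher and 20 not called, with a median of −0.05. The share called was 33.3%, against 28.5% of all expressed genes. The 10 calls numbered 3 without L-E rat 2, 5 without L-E rat 4 and 6 without L-E rat 1 or any of Line-A rats 2, 3 and 4. The higher ones were *Srebf1* and the receptors of oxysterols and bile acids, *Nr1h3* and *Nr1h4*, by 0.33 and 0.73, of which *Nr1h3* was not called with equal medians or without Line-A rat 2 or L-E rat 1, 2 or 3, nor *Nr1h4* without Line-A rat 1 or L-E rat 2 or 4. Of the lower ones, *Cebpa* averaged 7.86 ± 0.10 in Line-A and 9.09 ± 0.14 in L-E (adjusted p = 0.00082). Outside this list *Atf5*, of the stress response to amino acid shortage, averaged 10.99 ± 0.16 and 12.52 ± 0.23 (adjusted p = 0.0013). The groups did not overlap in either gene. *Lbp*, which binds bacterial lipopolysaccharide, read 10.19, 9.53, 9.39 and 9.68 in Line-A and 11.78, 12.44, 11.65 and 10.92 in L-E, 4.0-fold lower (adjusted p = 0.0012), and *Stat3*, which carries the interleukin-6 signal, was lower on both ProbeSets, by 1.21 and 2.0, the first of them not called without Line-A rat 4 or L-E rat 2. *Hamp*, the iron hormone hepcidin, averaged 12.88 ± 0.28 in Line-A and 11.73 ± 0.83 in L-E (adjusted p = 0.029, not called without Line-A rat 4 or L-E rat 1 or 2), while *Hmox1*, which breaks down heme, averaged 5.65 ± 0.51 and 7.16 ± 0.39 (adjusted p = 0.0012).

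Markers of macrophages and genes of MHC class II were lower in Line-A where called. Of 14 expressed Kupffer cell and macrophage markers 9 were lower and 0 higher, and of 8 MHC class II genes 5 were lower and 0 higher, with median differences of −0.44 and −0.83. Of 18 expressed genes of MHC class I and antigen processing 2 were higher and 1 lower, with a median of 0.01. These 3 calls numbered 1 without L-E rat 2. *Cd14*, the lipopolysaccharide co-receptor, read 7.97, 7.81, 7.98 and 7.87 in Line-A and 9.45, 9.92, 9.78 and 9.88 in L-E (3.60-fold lower, adjusted p = 0.0010), and *Lyz2*, lysozyme, 7.02, 7.76, 6.78 and 7.31 against 8.73, 8.72, 9.16 and 9.47 (3.48-fold lower, adjusted p = 4.0e-05). No Line-A rat reached an L-E rat in either. *RT1-Bb*, an MHC class II β chain, read 6.30, 6.43, 6.17 and 5.93 against 7.79, 8.66, 7.88 and 7.55 (3.40-fold lower, adjusted p = 0.0014). *Cd68*, *Csf1r*, *RT1-Da*, *RT1-Db1* and *Cd74* were lower by 1.05, 0.99, 1.05, 1.02 and 0.92, and *Clec4f*, the rodent Kupffer cell lectin, by 0.68. The value of *RT1-Db1* is that of 1 of its 2 expressed ProbeSets, whose differences lay 1.28 apart, so its size is uncertain. The log2 of the summed signal of the markers was 12.30 to 12.78 in Line-A and 12.86 to 13.32 in L-E. In whole liver, fewer cells of a type and less RNA per cell cannot be told apart, and the part of these cells in the other differences was not tested. The 9 macrophage calls numbered 5 without Line-A rat 4 and 5 without L-E rat 2.

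**Figure D4:**
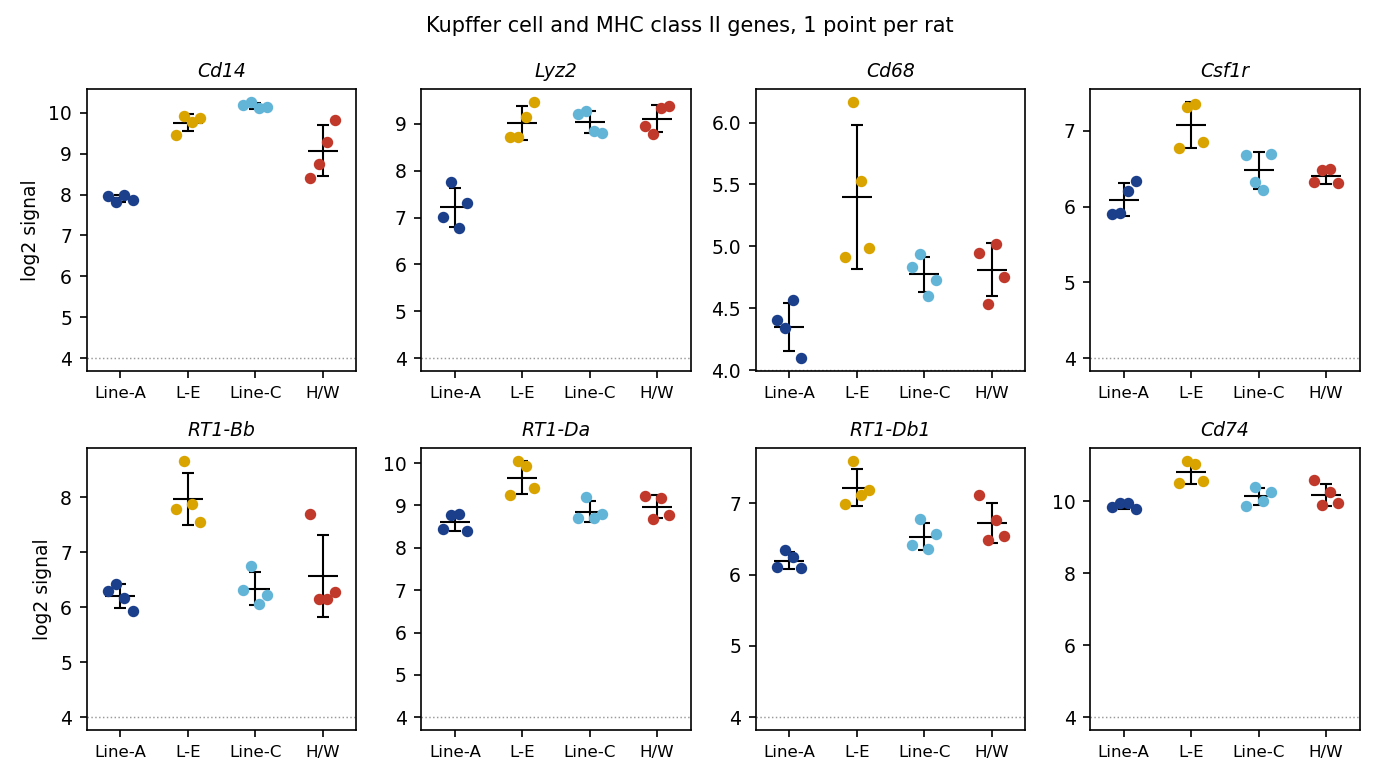
Signal (log2) of 4 macrophage markers (*Cd14*, *Lyz2*, *Cd68*, *Csf1r*) and 4 MHC class II genes (*RT1-Bb*, *RT1-Da*, *RT1-Db1*, *Cd74*) in each rat. Rats are drawn by group, with the mean ± SD of 4 rats. In all 8 genes every Line-A rat lies below every L-E rat. Only Line-A and L-E are compared here.

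Of 32 expressed genes of the unfolded protein response and chaperones 7 were higher in Line-A and 1 lower, with a median of 0.17. The share called was 25%, under the 28.5% of all expressed genes, and the 8 calls numbered 5 without L-E rat 2. *Hyou1* read 8.98, 7.76, 8.00 and 7.65 in Line-A and 5.69, 6.34, 6.97 and 6.61 in L-E (3.24-fold, adjusted p = 0.00090), and *Sdf2l1* 10.49, 9.45, 9.58 and 9.47 against 7.70, 7.5, 8.39 and 8.85 (3.12-fold, adjusted p = 0.0012). Line-A rat 1 was the highest of its group in both. *Hspa5*, the chaperone BiP, and the disulfide isomerases *Pdia3* and *Pdia6* were higher by 0.49, 0.73 and 0.66, *Pdia3* not without L-E rat 2. In amino acid breakdown 13 of 43 expressed genes were higher and 5 lower, and the 18 calls numbered 10 without Line-A rat 4, 11 without L-E rat 1 and 9 without L-E rat 2. *Haao* and *Kynu*, of tryptophan breakdown, were higher by 0.87 and 0.64, and *Prodh2*, of proline breakdown, was lower by 0.81. With equal medians the split of this list was 6 to 6. Of 31 cytosolic ribosomal proteins 7 were called higher and 0 lower (22.6%), with a median of 0.09, and with equal medians 1 was higher and 5 lower. Of 52 genes of the respiratory chain 7 were higher and 2 lower (17.3%), and with equal medians 2 and 5. The 9 calls of the respiratory chain numbered 5 without Line-A rat 4 or without L-E rat 2, and 14 without H/W rat 3. The direction of these small differences rests on the scaling. *Sirt5*, the mitochondrial desuccinylase, was higher by more than its spread, at 8.14 ± 0.20 in Line-A and 6.54 ± 0.35 in L-E (adjusted p = 4.1e-05).

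**Figure D5:**
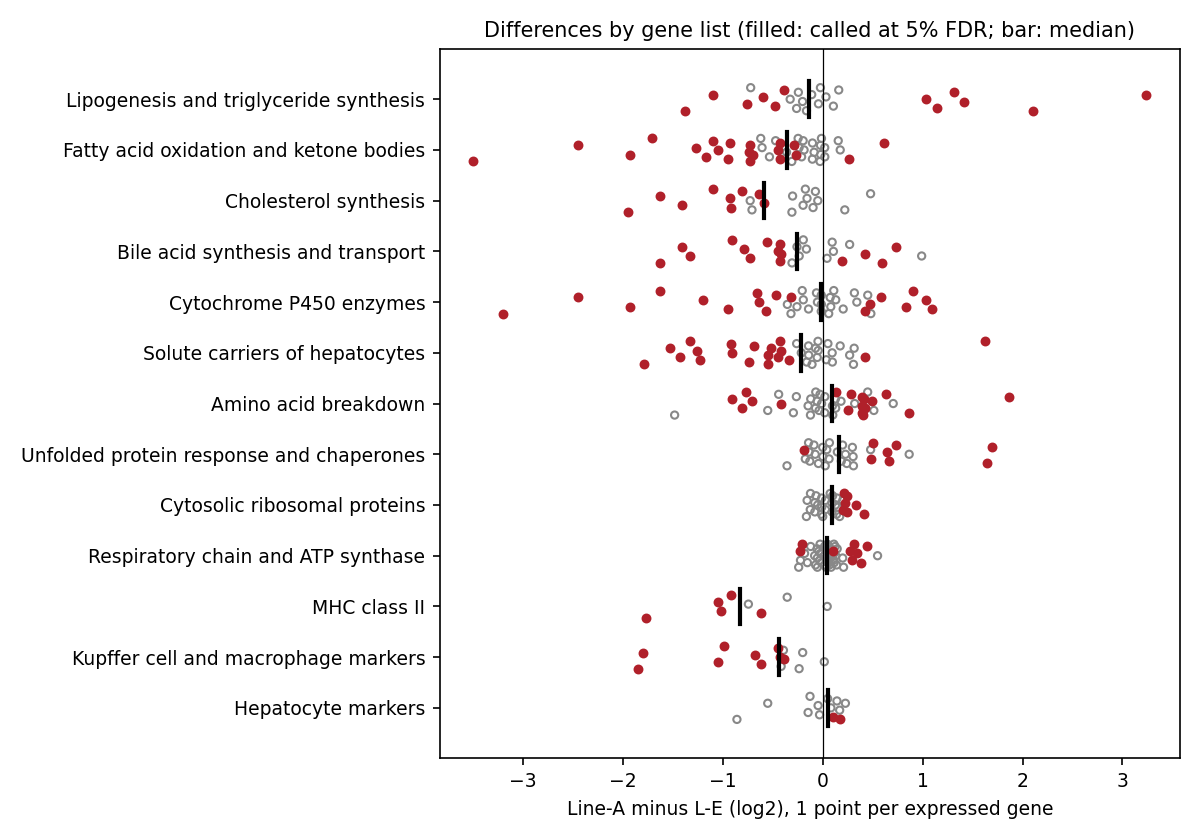
Difference of Line-A minus L-E (log2) for every expressed gene of 13 lists, with filled points called at 5% FDR and a bar at each list's median. The medians of MHC class II (−0.83), cholesterol synthesis (−0.59), macrophage markers (−0.44) and fatty acid oxidation (−0.36) lie furthest below 0, and of the lists drawn that of the unfolded protein response (0.17) lies furthest above.

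The most abundant transcripts among those called differed little. *Alb* averaged 16.69 ± 0.03 in Line-A and 16.58 ± 0.06 in L-E, 1.08-fold, and *Ttr*, *Gc*, *Serpina3l*, *Selenop* and *Cyp2e1* differed by 1.13, 1.13, 1.34, 1.18 and 1.24-fold, the last 2 lower in Line-A. A dimmer second ProbeSet of *Gc* differed more, at 11.39 ± 0.12 in Line-A and 10.03 ± 0.09 in L-E (2.58-fold, adjusted p = 3.4e-08). With equal medians the calls of *Alb*, *Ttr*, *Gc* and *Serpina3l* were lost. Without Line-A rat 4 or L-E rat 2 those of *Alb*, *Serpina3l* and *Cyp2e1* were lost, as they were without L-E rat 1 (*Alb*, *Serpina3l*), Line-A rat 3 (*Serpina3l*) or L-E rat 3 or 4 (*Cyp2e1*).

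Some called genes lay side by side. In the gene order of GRCr8, 5384 expressed genes could be placed, and 37 runs of at least 3 neighbouring measured genes were called in one direction, 24 higher and 13 lower in Line-A. With 16% of expressed genes called higher and 12.5% lower, some such runs arise in a random order too. Whether 37 is more than that was not tested. The longest, of 8 genes, had a median difference of 0.39. *Crot* lay in a lower run with *Cd36*, *Abcb4* and *Abcb1a*, and *Agtr1a* in a higher run with 4 genes of the prolactin family. *Stat5b* and *Stat3* were neighbours in another lower run with *Atp6v0a1*, a subunit of the proton pump. The calls of *Stat5b*, *Stat3* and *Cd36* were each lost without some single array, *Stat5b* and *Stat3* among them without L-E rat 2. The prolactin, amylase and urinary protein genes are families of near copies, so their runs are uncertain.

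For 611 genes with several expressed ProbeSets the readings could be set against each other. At least 1 was called for 339, and 16 genes had ProbeSets called in both directions. *Larp1*, an RNA-binding protein, was lower by 1.45 and 0.99 on 2 ProbeSets and higher by 0.99 on another, and *Sparc*, a matrix glycoprotein, was higher by 1.06 on one and lower by 0.76 on another (not called without Line-A rat 2 or 4 or L-E rat 3 or 4). *Slco2a1*, counted as higher among the bile acid genes and solute carriers, was also called both ways. These genes have no single direction here.

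Single rats stood far from their group in a few genes. *Onecut1*, the hepatocyte factor HNF6, read 8.97, 5.14, 9.30 and 9.22 in Line-A and 9.58, 9.62, 9.52 and 3.18 in L-E, so that 1 rat of each group lay far below the rest (adjusted p = 0.93). *Sds*, the serine dehydratase of gluconeogenesis, read 4.2, 4.10, 4.18 and 4.45 in Line-A and 5.15, 9.19, 4.13 and 4.39 in L-E. The metallothionein *Mt2A* read 10.36, 7.02, 7.60 and 7.49 in Line-A and 11.15, 12.00, 11.39 and 7.98 in L-E (adjusted p = 0.055), where again Line-A rat 1 and L-E rat 4 lay toward the other group. *Fabp5*, a fatty acid carrier, read 4.63, 7.89, 8.87 and 8.31 against 3.95, 2.66, 4.57 and 7.12 (adjusted p = 0.053), with the same 2 rats out of place. Over all expressed ProbeSets the median SD of 4 rats was 0.15 in both groups.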

How the data were processed

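Liver RNA of 20 rats was read on Affymetrix RAE230A arrays, 1 rat per array and 4 per group. The authors deposited GC-RMA signals on the log2 scale, 1 per ProbeSet. GC-RMA corrects probes for background by their GC content, sets them to one distribution over arrays and summarises them (R 2.6.1, affy 1.12.0 and GCRMA 2.10.0 in the submitters' processing notes). They were used without further scaling. Scan day, chip lot and operator came from the array header files, and the operator was the same for Line-A and L-E. A shift of all genes in one group would be removed by that step.

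One linear model with a mean per group was fitted to all 20 arrays with limma 3.58.1 in R 4.3.3, as in the study's methods, and p-values of Line-A minus L-E were adjusted by Benjamini-Hochberg over all 15923 ProbeSets. Counts are of ProbeSets with a mean of at least 4. A ProbeSet was named through its gene identifier in the platform annotation and current RefSeq symbols, with 12789 under 1 symbol, 312 under several and 2822 under none. In lists, a gene stood by its brightest ProbeSet. Where arrays of the dimmer group lay under 4, those values were raised to 4, and "at least" marks the fold as a bound. The p-values set each difference against the spread between rats of a group, pooled over all 5 groups. They do not separate the groups from scan day or chip lot.

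The members and gene lists were chosen with earlier results of these data known. Genes were named by a rule: the 12 largest differences each way without overlap, up to 4 per list, the 6 most abundant called, *Ahr*, *Arnt*, *Cyp1a1*, *Cyp1a2*, *Nqo1* and the genes of the study's *Ahr* table, genes with ProbeSets that disagree, neighbouring runs, the 5 most variable per group, and up to 6 that differ from Line-C and H/W too. Not all of these are described. *Acadl*, *Acadm*, *Acly*, *Cela1*, *Clec4f*, *Ctnnb1*, *Cyp2a1*, *Cyp4f6*, *Decr1*, *Echs1*, *Eci1*, *Ehhadh*, *Fabp1*, *Fads2*, *Hspa5*, *Kynu*, *Lss*, *Nr1h3*, *Nr1h4*, *Prss1*, *Srebf1*, *Thrsp*, *Ugt2b1* and *Ugt2b15* fall outside this rule and were picked once their values had been seen.

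Each result was recomputed with array weights, with limma's trend, with equal medians, with quantile normalization repeated, on the 8 arrays alone, with a replicate block, with scan day or chip lot as a random block (statmod 1.5.0), on expressed ProbeSets only, at other limits, at 1% FDR, with the mean of a gene's ProbeSets and with each array left out. On simulated data for this contrast with 15923 ProbeSets, 86 of 100 changed by 1 and 38 of 100 changed by 0.5 were recovered, and 4 of 6968 unchanged ones were called. The simulated noise was normal and independent between arrays, with 1 SD per ProbeSet and no shift by scan day or chip lot. Far fewer ProbeSets were changed than the 2132 called in the data. These shares therefore need not hold for the real contrast.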

Additional observations from a re-analysis of the deposited data

Results flagged for a closer look

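In 296 sets of 4 rats (148 described ProbeSets in Line-A and in L-E), 14 had 1 rat far from the other 3 by Dixon's criterion. Chance alone flags about 1 group in 20, so 14 is near what chance gives, and the rats below are listed as a description only.

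In Line-A, rat 1 stood apart in 4 ProbeSets. It read 6.79 in *Crot*, on the ProbeSet of larger difference, where the others read 3.24 to 3.26, and 10.49 in *Sdf2l1*, above 9.45 to 9.58. It read 5.90 in *Srebf2*, below 7.23 to 7.32, and 6.45 in *Slc4a2*, below 6.91 to 7.0. Line-A rat 2 read 5.53 in *Stat5b*, above 5.38 to 5.40, and rat 3 read 5.95 in *Cd36*, below 6.43 to 6.51. In *Onecut1* Line-A rat 2 read 5.14, below 8.97 to 9.30.

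In L-E, rat 4 read 3.18 in *Onecut1*, below 9.52 to 9.62, 3.35 in *Rab14*, on its dimmest called ProbeSet, below 4.11 to 4.24, and 5.19 in *Tiparp*, below 5.59 to 5.67. L-E rat 2 read 11.53 in *Cyp2c12*, above 10.94 to 11.02, and 10.79 in *Acat1*, above 10.45 to 10.51. L-E rat 3 read 8.10 in *Nr1h4*, above 7.78 to 7.81. L-E rat 1 read 9.22 in *Slco2b1*, below 9.40 to 9.43.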

How the results depend on the processing

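Of 125 described ProbeSets called at 5% FDR, 95 kept their call and direction under all alternatives but the 1% FDR. Over expressed ProbeSets the 2132 calls (1161 higher in Line-A, 971 lower) numbered 1022 (491 and 531) with scan day as a random block, 806 (355 and 451) at 1% FDR and 4378 with no limit of expression (3325 higher). Equal medians left 583 higher, and a limit of expression of 6 left 757 higher. Leaving out single arrays gave 1225 to 2719 calls, 614 to 1530 higher and 611 to 1189 lower. The lowest came without Line-A rat 4 and the highest without H/W rat 3. The causes were not tested. Reversed differences were those of genes not called: *Cyp1a2* (−0.041 with equal medians), *Sirt3* (0.24 with array weights, 0.016 with quantile normalization, 0.019 with scan day as a block, −0.18 to 0.083 over arrays left out), *Onecut1* (−1.22 with array weights, −1.42 to 1.18 over arrays left out) and the uncalled ProbeSet of *Spink1* (−0.044 to 0.31 over arrays left out).

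Rats of different groups with 1 number are different animals, and deviations of same-numbered rats correlated at −0.16 to 0.15, with 0 of 4 Line-A rats closest to the L-E rat of its number. With a replicate block the calls numbered 2006 (1086 higher, 920 lower), and no call of a described ProbeSet was lost. Signals under 4 limit the folds of genes that one group lacked to lower bounds, and 4 arrays per group limit the precision of all of them.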

Other observations

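Most lysosomal genes that were called were lower in Line-A. Of 37 expressed, 9 were lower and 2 higher, with a median difference of −0.15 against 0.05 over all expressed genes. The share called was 29.7%, near the 28.5% of all expressed genes, of which 16% were higher and 12.5% lower. The 11 calls numbered 6 without L-E rat 2 and 6 with scan day as a random block. *Ctsd*, the main aspartic protease of lysosomes, read 8.59, 9.08, 8.93 and 8.78 in Line-A and 9.61, 9.90, 10.14 and 9.97 in L-E (2.09-fold lower, adjusted p = 0.00049 in limma), and *Tpp1*, a tripeptidyl peptidase, averaged 8.89 ± 0.18 and 9.73 ± 0.20 (SD, n = 4 each). *Lipa*, the acid lipase that frees cholesterol from its esters, averaged 9.90 ± 0.40 and 10.75 ± 0.22. These genes are expressed by macrophages as well as hepatocytes, and macrophage markers were lower too. Their part in the result was not tested.

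Among 38 expressed genes of splicing and RNA binding 5 were higher and 6 lower. The share called was 28.9%, near the 28.5% of all expressed genes. The 11 calls numbered 7 without L-E rat 2 and 6 with scan day as a random block. *Ptbp1*, a repressor of exon inclusion, read 9.03, 8.86, 9.06 and 8.83 in Line-A and 9.99, 9.77, 9.81 and 9.77 in L-E (adjusted p = 0.00060), and averaged 8.94 in Line-C and 9.69 in H/W. Line-A rats lay with Line-C, which shared their scan day, and L-E rats with H/W, which shared theirs. Line-A and L-E cannot be told apart from scan day or chip lot. *Pcbp2*, which binds poly(C) stretches, averaged 9.92 ± 0.09 in Line-A and 10.64 ± 0.07 in L-E (adjusted p = 9.9e-05), with Line-C (10.20) and H/W (10.53) between them.

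*Ugp2*, which makes UDP-glucose for glycogen and for glucuronides, read 11.56, 11.90, 11.81 and 11.88 in Line-A and 11.03, 10.60, 11.07 and 10.93 in L-E (1.84-fold, adjusted p = 0.00018). *Ugp2* averaged 11.92 in Line-C and 11.89 in H/W, so L-E was the group that stood apart.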
